A study of Mus musculus with 22 samples.

Results

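The 9 genes described here, Foxp3, Il2ra, Il2rb, Ctla4, Ikzf2, Tnfrsf4, Tnfrsf18, Tigit and Icos, are genes by which regulatory T cells are commonly recognised. They were taken by name, through their mouse Ensembl identifiers and the symbols of the GENCODE vM21 annotation of GRCm38. They are 9 of the 34585 entries in each count table, of which 34465 matched a gene of that annotation. Regulatory T cells are CD4 T cells that restrain responses to self. Many arise in the thymic medulla from thymocytes that meet self antigen, and they depend on the transcription factor Foxp3 and on interleukin-2. The other genes encode interleukin-2 receptor chains, costimulatory and inhibitory surface receptors, and the transcription factor Helios. Apart from Foxp3 they are not confined to regulatory T cells: Il2ra also marks early thymocytes, Il2rb is high in NK cells, and Icos, Tnfrsf4 and Tnfrsf18 are carried by other activated T cells.

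The tissues were the thymus, the cerebrum and the cerebellum, each taken from Tol mice and from WT littermates of the C57BL/6 strain that were, by the study's methods, 7 to 14 weeks old. Tol mice were heterozygous for a transgene driven by the broadly active CAG promoter and placed 3′ of Col1a1, which encodes scrambled fragments of reporter and modifier proteins meant to render the mice tolerant to those proteins. There were 4 Tol and 4 WT libraries of thymus, 4 and 4 of cerebrum, and 2 Tol and 4 WT libraries of cerebellum, 22 in all. RNA came from frozen tissue and was sequenced from stranded, poly(A)-selected libraries. Total counts ran from 14543698 to 34776973 per library, so that 3 counts, the level taken as the detection floor, corresponded to 0.0875 to 0.207 CPM (counts over the library total, scaled by TMM factors within an organ).

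The labels were checked against the transgene and against tissue markers. In the thymi the transgene's transcript lay at 23.3 to 29.8 CPM in Tol mice, while the WT mice had 0 to 0.0568 CPM. In the Tol cerebra it was at 128 to 154 CPM and in the Tol cerebella at 139 to 183 CPM, with at most 0.104 CPM in any WT brain library. Thymus markers such as Rag1, Cd4 and Cd8a summed to 9136 to 12350 CPM in the 8 thymi and to at most 38.8 CPM in any brain library. In cerebrum 2 libraries stood apart in these markers, Tol 4 at 22.3 CPM and WT 3 at 38.8 CPM, against 4.12 to 7.56 CPM in the other 6. Cd4 was the most abundant of them there, with highest values of 16.9 CPM in Tol and 35.7 CPM in WT mice, while Cd3e did not exceed 0.564 CPM in any cerebrum. The library labelled cerebellum Tol 2 went against its label: cerebellum markers such as Cbln3, Gabra6 and Pcp2 summed to 219 CPM in it, against 5515 CPM in Tol 1 and 2290 to 5055 CPM in the WT cerebella. Its 7 cerebrum markers summed to 28.1 CPM, mostly from Lhx2 (15.9 CPM) and Emx2 (6.82 CPM), against 8.71 to 11.1 CPM in the other cerebella and 424 to 533 CPM in the cerebra. Another of them, Neurod6, was at 1.36 CPM in it, below the 4.90 to 6.42 CPM of the WT cerebella. Cerebellum fold changes, edgeR's counts and ratios of levels are therefore given with and without this library.

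In thymus, none of the 9 genes differed between Tol and WT mice at an adjusted p under 0.05 in edgeR's quasi-likelihood test, with 4 mice per genotype. All 9 passed the filter on low counts. The share of all 16248 genes tested that passed was 0.0985%, or 16 genes besides the transgene, 9 higher and 7 lower in Tol. That number depended on single libraries, being 2978 without Tol 1, 97 without Tol 3, 7 without WT 4 and 0 without any 1 of the other 5. At an unadjusted p under 0.05 there was 1 of the 9, Il2rb, against 24.4% of all genes. Leaving out a library moved these counts, to 4 of the 9 and 5544 of 16370 genes without Tol 1 and to 2 of the 9 and 3049 of 16433 genes without WT 4. They were 0 of the 9 without Tol 2, Tol 4, WT 1 or WT 2, with 2573 of 16531 to 2913 of 16478 genes. The 2 genotypes overlapped for every one of the 9, while 11.8% of all genes showed no overlap. DESeq2 likewise passed 0 of the 8 members to which it gave an adjusted p, with 1 of 9 at an unadjusted p under 0.05, although it passed 1296 genes in all. Leaving out Tol 1 was the 1 alternative of 17 under which a member passed, Tnfrsf18, with an adjusted p of 0.0388 by edgeR (0.0388 to 0.913 over its alternatives). Log2 fold changes (Tol over WT) were positive for 3 members and negative for 6, with a median of -0.09, beside a median of 0.01 over all genes. In this fit of the thymi alone, the 95% confidence intervals of the 9 lay between -0.64, the lower bound for Foxp3, and 0.42, the upper bound for Tnfrsf4. Changes to less than 0.640 or more than 1.33 of the WT level lay outside each of them. The SE was larger with all 22 libraries in 1 fit, at 0.384 for Foxp3 (0.157 here) and 0.251 for Il2rb (0.109 here). These bounds therefore do not hold for that fit.

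**Figure D1:**
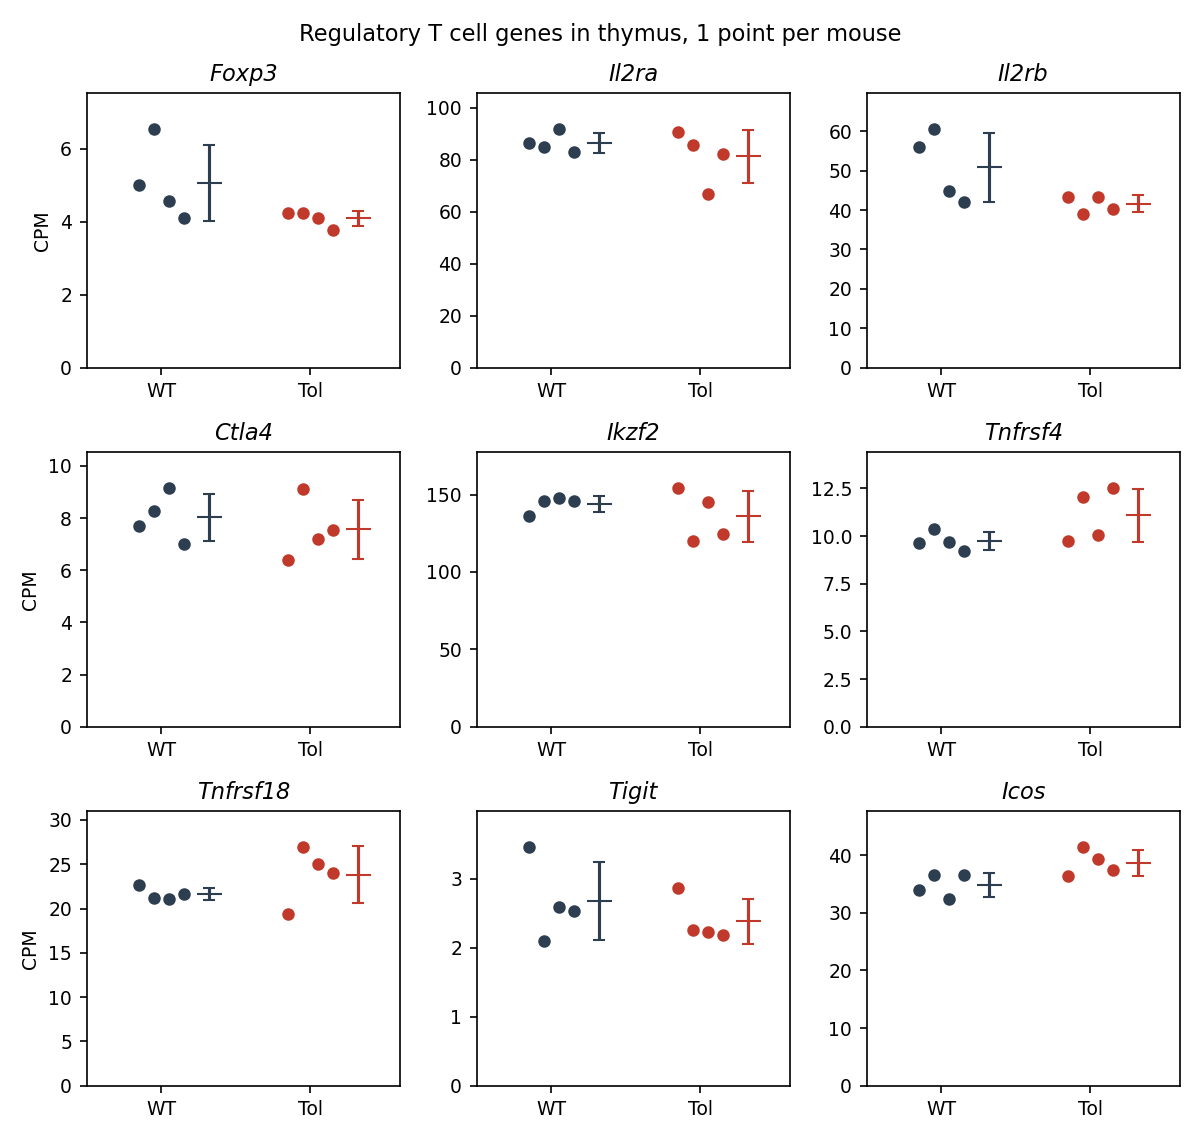
Levels of the 9 genes in thymus in CPM (vertical axes, each from 0), with 1 point per mouse for 4 WT (dark) and 4 Tol (red) mice, and the mean ± SD beside them. The genotypes overlap in every panel, and Foxp3 lies between 3.77 and 4.23 CPM in Tol thymi and between 4.10 and 6.53 CPM in WT thymi.

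Foxp3, the lineage factor, was at 4.23, 4.23, 4.11 and 3.77 CPM in Tol 1 to 4 and at 5.02, 6.53, 4.57 and 4.10 CPM in WT 1 to 4. The WT thymi spread widely, with WT 2 highest and WT 4 inside the Tol range, whereas the Tol thymi lay close together. The means were 4.08 ± 0.216 CPM (SD, n = 4) in Tol and 5.05 ± 1.05 CPM (SD, n = 4) in WT. The log2 fold change was -0.30 ± 0.16 (SE, 95% interval -0.64 to 0.05, adjusted p = 0.264 by edgeR). It was -0.15 without WT 2 and -0.39 without WT 4 (unadjusted p = 0.0328 and adjusted p = 0.24 by edgeR). It rested on 74 to 145 counts per library. In whole thymus, a difference in the number of cells of a type and a difference in RNA per cell cannot be told apart, for Foxp3 or for the genes below. Exons of Foxp3 overlap those of Flicr on the same strand over 853 bases, and those of Ccdc22, Ppp1r3f and Gm36995 on the other strand over 590, 266 and 373 bases. How the counting treated strand is not given in the sources used here, so its counts are uncertain to that extent.

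Ikzf2 encodes Helios, a factor of the Ikaros family found in most thymus-derived regulatory T cells and in thymocytes that receive strong signals. Its levels were 154, 120, 145 and 125 CPM in the Tol thymi and 136, 146, 148 and 146 CPM in the WT thymi. Tol 1 lay above the narrow WT range, Tol 3 within it, and Tol 2 and Tol 4 below it. The log2 fold change of -0.08 ± 0.08 (SE, adjusted p = 0.577 by edgeR) turned to 0.05 when a trend with transcript length and GC content was removed from each library, and ran from -0.14 without Tol 1 to -0.02 without Tol 2. Antisense Gm29114 overlaps its exons over 144 bases.

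Il2ra and Il2rb encode the alpha and beta chains of the interleukin-2 receptor. The alpha chain raises its affinity and the beta chain, shared with the interleukin-15 receptor, signals. Il2rb was at 43.3, 39.1, 43.4 and 40.3 CPM in the Tol thymi and at 56.0, 60.5, 44.8 and 42.0 CPM in the WT thymi. WT 1 and WT 2 were well above the rest, and WT 4 fell among the Tol mice. With means of 41.5 ± 2.17 and 50.8 ± 8.86 CPM (SD, n = 4 each), the log2 fold change was -0.29 ± 0.11 (SE, 95% interval -0.53 to -0.05, adjusted p = 0.144 by edgeR, and 0.0818 to 0.724 over the alternatives). With all 8 libraries, the interval of Il2rb was the one of the 9 that did not include 0. Il2ra was at 90.6, 85.4, 66.7 and 82.1 CPM in the Tol thymi and at 86.5, 84.9, 91.6 and 82.7 CPM in the WT thymi. Tol 3 was the lowest of the 8 and the others were intermingled (log2 fold change -0.09 ± 0.09, SE, adjusted p = 0.559 by edgeR). Without Tol 3 the value for Il2ra was -0.0045, and without Tol 1 it was -0.14.

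Tnfrsf4 (OX40) and Tnfrsf18 (GITR) are costimulatory receptors of the tumour necrosis factor receptor family. They lie 9551 bases apart on the + strand of chromosome 4. Tnfrsf4 was at 9.74, 12.03, 10.1 and 12.5 CPM in the Tol thymi and at 9.64, 10.4, 9.70 and 9.21 CPM in the WT thymi. Tol 2 and Tol 4 exceeded every WT mouse, and Tol 1 and Tol 3 lay within the WT range. The log2 fold change was 0.18 ± 0.11 (SE, adjusted p = 0.302 by edgeR). It was 0.12 without Tol 4 and 0.26 without Tol 1 (unadjusted p = 0.0357 and adjusted p = 0.118 by edgeR). Tnfrsf18 was at 19.3, 26.9, 25.1 and 24.0 CPM in the Tol thymi and at 22.6, 21.2, 21.1 and 21.7 CPM in the WT thymi. Here 3 Tol mice exceeded all WT mice, and Tol 1, the most deeply sequenced library, was the lowest of the 8. The log2 fold change of 0.13 ± 0.10 (SE, adjusted p = 0.423 by edgeR) became 0.23 without Tol 1, with an adjusted p of 0.0388 in edgeR, in a fit in which 2978 of 16370 genes passed, and 0.07 without Tol 2. Over all alternatives its adjusted p ran from 0.0388 to 0.913. With the trend in length and GC content removed, the value for Tnfrsf18 was 0.03 and that for Tnfrsf4 was 0.08. Antisense Gm16008 covers 414 bases, or 27.2%, of the exons of Tnfrsf18, so that its counts too are uncertain where strand was not used.

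Icos, Ctla4 and Tigit are receptors of the immunoglobulin family. Icos is costimulatory, Ctla4 competes with Cd28 for Cd80 and Cd86, and Tigit is an inhibitory receptor that binds nectin family ligands. Icos was at 36.3, 41.4, 39.4 and 37.4 CPM in the Tol thymi and at 33.9, 36.6, 32.4 and 36.6 CPM in the WT thymi. Tol 2, Tol 3 and Tol 4 were above all WT mice, and Tol 1 fell just below WT 2 and WT 4. The log2 fold change was 0.14 ± 0.07 (SE, 95% interval -0.01 to 0.30, adjusted p = 0.222 by edgeR). It was 0.18 without Tol 1 (unadjusted p = 0.020 and adjusted p = 0.0817 by edgeR) and 0.11 without Tol 2. Ctla4 ranged from 6.39 to 9.12 CPM in the Tol mice and from 7.02 to 9.15 CPM in the WT mice, ranges that nearly coincide (log2 fold change -0.09 ± 0.13, SE, adjusted p = 0.720 by edgeR). Without Tol 1 the value for Ctla4 was -0.0011, without WT 3 it was -0.01, and without Tol 2 it was -0.18. Tigit, with 37 to 98 counts per library, ranged from 2.19 to 2.86 CPM in the Tol mice and from 2.10 to 3.46 CPM in the WT mice (log2 fold change -0.15 ± 0.19, SE, adjusted p = 0.651 by edgeR). Without WT 1 the value for Tigit was -0.0086, without WT 2 it was -0.25, and without Tol 1 it was -0.26. Ctla4 and Icos lie 62094 bases apart on chromosome 1, with Cd28 113640 bases before Ctla4 on the same strand.

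**Figure D2:**
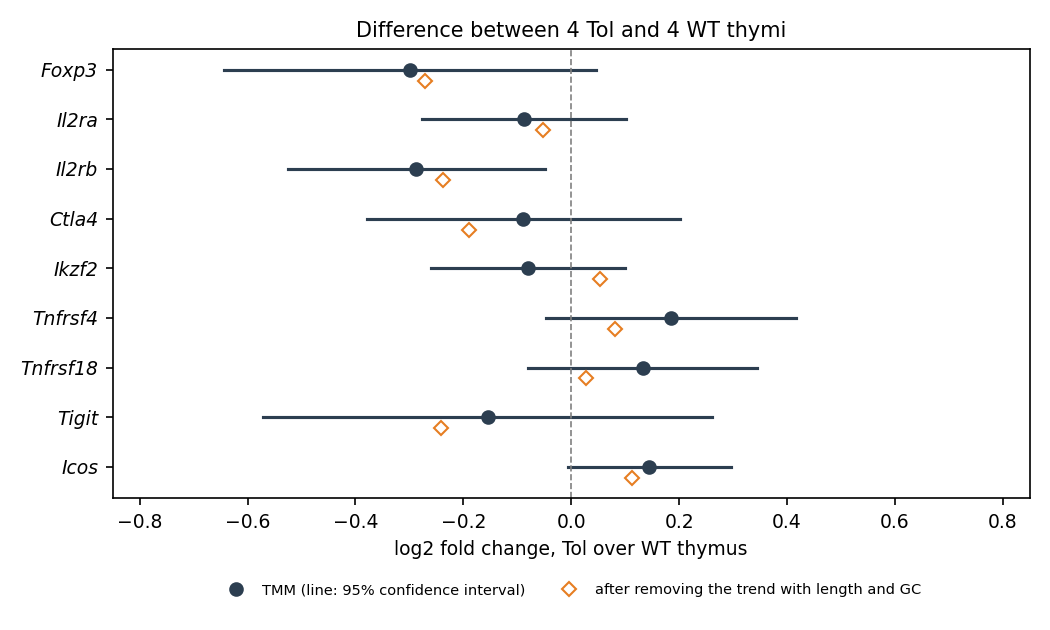
Log2 fold change of each gene between 4 Tol and 4 WT thymi (horizontal axis), with its 95% confidence interval as a line, and, as open diamonds, the value after a trend with transcript length and GC content was removed from each library. Intervals include 0 for every gene but Il2rb (-0.53 to -0.05), and Ikzf2 moves from -0.08 to 0.05.

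Across all thymus genes the difference between genotypes ran with transcript length: Spearman's rho between log2 fold change and the length of the longest transcript was -0.384 over 16199 genes, which are not independent replicates. The median log2 fold change was 0.17 in the shortest decile of genes, which holds Tigit, 0.15 in the next decile, which holds Tnfrsf4 and Tnfrsf18, and -0.15 in the longest decile, which holds Ikzf2. Foxp3 and Il2rb fell in a decile with a median of -0.02, Il2ra in one with -0.06, Icos in one with 0.00 and Ctla4 in one with 0.09. With the trend in length and GC content removed, Foxp3 was at -0.27, Il2rb at -0.24, Tigit at -0.24, Ctla4 at -0.19, Il2ra at -0.05 and Icos at 0.11. By edgeR 0 of the 9 genes passed in that fit, with 1 at an unadjusted p under 0.05, beside 0 by DESeq2 without that removal.

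Per kilobase of summed exons, the order of mean levels over the 8 thymi was Tnfrsf18 (14.9 CPM per kb), Il2ra (14.7), Ikzf2 (12.05), Il2rb (10.8), Icos (10.7), Tnfrsf4 (7.63), Ctla4 (3.35), Tigit (2.75) and Foxp3 (0.998). Libraries of neighbours in this order overlapped, except that Icos lay above Tnfrsf4, Tnfrsf4 above Ctla4 and Tigit above Foxp3 in every library. Dividing by the longest transcript instead exchanged Il2rb and Icos and left the other ranks as they were. The lineage factor was thus the least abundant of the 9 per length.

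Over the 8 thymi, the 5 other genes whose log2 CPM ran most nearly with that of Foxp3, out of 14751 compared, were Sh3bp1 (Pearson's r 0.976, Spearman's rho 0.976), Itgb8 (0.957 and 0.929), Trim66 (0.956 and 0.762), Tnks1bp1 (0.951 and 0.786) and Ski (0.947 and 0.786). These are the top of a long ranking over 8 libraries that share tissue and scaling, and are given as a description. Between genotypes their log2 fold changes ran from -0.28 for Itgb8 to -0.09 for Sh3bp1, with adjusted p from 0.170 for Ski to 0.512 for Trim66 by edgeR.

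Other genes of the same biology were described from lists, of which no gene passed at an adjusted p under 0.05 in thymus by edgeR with all 8 libraries. Counts at an unadjusted p under 0.05, by DESeq2 and by edgeR without Tol 1 stand beside each, and are to be read against the same counts over all genes, which were 24.4% of those tested (2162 higher and 1802 lower), 1296 of 16248 and 2978 of 16370. With the trend in length and GC content removed, 0 genes of each list passed by edgeR with all 8 libraries, as without that removal, against 85 of all genes, and the medians in that fit are given as trend-removed medians. Of 30 further genes linked to regulatory T cells 28 were tested, with 1 higher and 4 lower at an unadjusted p under 0.05 and a median log2 fold change of -0.05 (trend-removed -0.06). DESeq2 passed 1, Irf4, lower, and edgeR without Tol 1 passed 2, Irf4 and Nrp1, lower. Irf4, a factor of effector regulatory T cells, had the lowest p (-0.30 ± 0.07, SE, adjusted p = 0.0835 by edgeR, 21.0 ± 1.64 CPM in Tol and 25.8 ± 0.687 CPM in WT, SD, n = 4 each, without overlap). Cd83 was the most abundant of them at 116 CPM, with a log2 fold change of 0.13 ± 0.05 (SE, adjusted p = 0.168 by edgeR).

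All 32 transcription and signalling factors known to act on Foxp3 were tested. At an unadjusted p under 0.05, 0 were higher and 9 lower, beside 2162 higher and 1802 lower of all 16248 genes, 27 of the 32 values were negative, and the median was -0.13, beside 0.01 for all genes. DESeq2 passed 6, each lower, and edgeR without Tol 1 passed 1 higher and 10 lower, in fits that passed 1296 of 16248 and 2978 of 16370 genes. Rel, the NF-kappaB member that acts at the Foxp3 locus, had the lowest p (-0.24 ± 0.06, SE, adjusted p = 0.0860 by edgeR), and Tcf7, the most abundant, was at 3029 ± 246 CPM in Tol and 3615 ± 127 CPM in WT thymi (SD, n = 4 each, log2 fold change -0.26 ± 0.07, SE, adjusted p = 0.0942 by edgeR). Their summed level was 12420, 11290, 11870 and 10300 CPM in Tol and 12790, 12490, 12760 and 12630 CPM in WT thymi. The genotypes did not overlap in this sum, to which Tcf7, with the means just given, contributed the most. Of all genes taken singly 11.8% showed no overlap, a share that was not measured for sums. In thymus the genotypes did not overlap either in the sum of 7 markers of neurons and glia. The trend-removed median of the 32 factors was -0.02, and 22 of the 32 values were negative.

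In the interleukin-2 family, 19 of 20 ligands, receptors and signalling genes were tested, Il2 itself being under the filter. Of these 0 were higher and 5 lower at an unadjusted p under 0.05, the median was -0.05 (trend-removed -0.07), and DESeq2 passed 2, Il7r and Jak1, both lower, as did edgeR without Tol 1. Il7r, the receptor for interleukin-7, had the lowest p, at 58.4 ± 2.27 CPM in Tol and 74.6 ± 7.95 CPM in WT thymi (SD, n = 4 each) without overlap (-0.35 ± 0.08, SE, adjusted p = 0.0710 by edgeR). Jak1, the most abundant, had a log2 fold change of -0.23 ± 0.07 (SE, adjusted p = 0.100 by edgeR). Of 22 ligands, counter-receptors and kin of the receptors 21 were tested, 3 higher and 4 lower at an unadjusted p under 0.05, with a median of -0.06 (trend-removed -0.05), 0 by DESeq2 and, without Tol 1, 1 lower by edgeR, Traf6. Cd226, the activating receptor that shares ligands with Tigit, had the lowest p (-0.23 ± 0.08, SE, adjusted p = 0.126 by edgeR), and Cd28, the most abundant, had -0.17 ± 0.07 (SE, adjusted p = 0.178 by edgeR). Cd28 was also the gene with the lowest p and the highest level among 10 genes beside the member loci (0 higher and 1 lower at an unadjusted p under 0.05, median -0.11, trend-removed -0.08, 0 by DESeq2), of which edgeR without Tol 1 passed 1, Sdf4, higher.

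Genes of other cells in the thymus were set beside the members; their part in the members' values was not tested. Of 17 genes of mature single-positive thymocytes 3 were higher and 4 lower at an unadjusted p under 0.05 (median -0.04, trend-removed -0.01, DESeq2 passed 2 higher and 3 lower, edgeR without Tol 1 passed 2 and 2), with sums of 1799 to 1922 CPM in the Tol mice, against 1818 to 1934 CPM in the WT mice. Bcl2l11, which promotes death of self-reactive thymocytes, had the lowest p (-0.29 ± 0.06, SE, adjusted p = 0.0688 by edgeR). Of 14 genes of double-positive and earlier thymocytes 1 was higher and 1 lower (median 0.01, trend-removed 0.00, by DESeq2 and by edgeR without Tol 1 also 1 and 1), with sums of 11250 to 13950 CPM in the Tol mice, against 13540 to 15080 CPM in the WT mice. Rag1, the recombinase gene and both the most abundant and the lowest in p, was at 3900 ± 760 CPM in Tol and 5291 ± 395 CPM in WT thymi (SD, n = 4 each) without overlap (-0.44 ± 0.13, SE, adjusted p = 0.0926 by edgeR).

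Genes of NK and innate-like T cells, which also use Il2rb, summed to 162, 171, 176 and 191 CPM in the Tol thymi and 153, 169, 158 and 150 CPM in the WT thymi, with overlap and with the highest values in Tol mice. Of the 13 tested of 14, 1 was higher and 0 lower at an unadjusted p under 0.05 (median 0.09, trend-removed 0.06, 0 by DESeq2, 1 higher by edgeR without Tol 1), namely Gzma, also the most abundant (0.26 ± 0.10, SE, adjusted p = 0.161 by edgeR). Genes of innate lymphoid cells summed to 122, 124, 131 and 118 CPM in Tol and 133, 143, 134 and 133 CPM in WT thymi. The genotypes did not overlap in the sum of this list, beside 11.8% of all genes taken singly, a share that was not measured for sums. Of the 7 tested of 8, 0 were higher and 2 lower (median -0.15, trend-removed -0.10, with 1 lower by DESeq2 and by edgeR without Tol 1), Il17rb having the lowest p (-0.25 ± 0.06, SE, adjusted p = 0.0843 by edgeR) and Id2 the highest level at 52.7 CPM.

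Antigen-presenting cells and epithelium, which present self antigen to developing regulatory T cells, gave mixed values. Of 8 B cell genes 0 were higher and 3 lower at an unadjusted p under 0.05 (median -0.16, trend-removed -0.22, with 2 lower by DESeq2 and by edgeR without Tol 1), and their sums overlapped, with 89.4 to 98.7 CPM in the Tol mice, against 91.5 to 121 CPM in the WT mice. Pax5 had the lowest p (-0.57 ± 0.16, SE, adjusted p = 0.0914 by edgeR) and Cd79b the highest level at 22.3 CPM. Of 12 dendritic cell genes 0 were higher and 4 lower (median -0.13, trend-removed also -0.13, 0 by DESeq2, 1 lower by edgeR without Tol 1, sums of 440 to 529 CPM in the Tol mice, against 443 to 522 CPM in the WT mice), with Xcr1 lowest in p (-0.31 ± 0.12, SE, adjusted p = 0.155 by edgeR) and Cst3 highest in level at 227 CPM. Of 12 genes of medullary epithelium 2 were higher and 0 lower (median 0.11, trend-removed 0.06, 1 higher by DESeq2, 2 by edgeR without Tol 1, sums of 593 to 691 CPM in the Tol mice, against 539 to 704 CPM in the WT mice), with Epcam lowest in p (0.25 ± 0.07, SE, adjusted p = 0.0982 by edgeR) and Ccl21a highest in level at 230 CPM. None of the genes of these 3 lists was under 3 counts in all thymi. Of 7 general T cell genes 3 were higher and 1 lower at an unadjusted p under 0.05 (median 0.09, trend-removed 0.03), and DESeq2 and edgeR without Tol 1 each passed 3 higher, with Cd3d lowest in p (0.33 ± 0.10, SE, adjusted p = 0.0992 by edgeR) and Lck highest in level at 1325 CPM.

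In the brain each of the 9 genes lay below its own thymus level. The most abundant there were Ikzf2 and Tnfrsf18, with means of 9.08 and 6.20 CPM in cerebellum. In cerebrum 2 of the 9, Ikzf2 and Tnfrsf18, passed the filter on low counts, and neither passed at an adjusted p under 0.05 by edgeR, where 0% of 15596 genes did, nor at an unadjusted p under 0.05, where 9.66% of all genes did. DESeq2 passed 187 genes there and neither of them, and edgeR passed 7 genes without WT 3. In cerebellum 6 passed the filter, Ikzf2, Tnfrsf18, Tnfrsf4, Foxp3, Il2ra and Tigit. By edgeR 0% of 16662 genes passed there and 3.16% had an unadjusted p under 0.05, with 0 of the 6 members in either count. Without Tol 2 it passed 0 of 17082 genes, with 352 at an unadjusted p under 0.05, of which 0 were among the 6, and without Tol 1 it passed 2 genes. With all libraries DESeq2 passed 9 genes, 0 of them members, and gave no adjusted p for 3 of the 6. The adjusted p of the members tested by edgeR ran from 0.783 to 0.960 in cerebrum and from 0.957 to 0.966 in cerebellum. These counts of 0 do not show that levels were alike. With all 6 cerebella, the 95% interval of the log2 fold change was -0.66 to 0.20 for Ikzf2, -0.77 to 0.42 for Tnfrsf18, -1.42 to 0.71 for Tnfrsf4 and -0.77 to 1.07 for Tigit. It was widest for Foxp3, at -1.50 to 1.09, and Il2ra, at -1.01 to 1.65.

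Ikzf2 was at 3.87, 3.35, 5.36 and 4.89 CPM in the Tol cerebra and at 6.01, 3.33, 2.71 and 6.17 CPM in the WT cerebra. WT 1 and WT 4 were the highest and WT 2 and WT 3 the lowest, so that the WT mice enclosed the Tol mice (log2 fold change -0.07 ± 0.29, SE), and the value turned to 0.04 without Tol 2, 0.10 without WT 1 and 0.11 without WT 4. Tnfrsf18 was at 4.17, 3.11, 3.82 and 2.82 CPM in the Tol cerebra and at 3.48, 3.27, 2.66 and 2.98 CPM in the WT cerebra, with overlap (0.17 ± 0.17, SE). Without Tol 4, which stood apart in thymus markers, the values were -0.12 for Ikzf2 and 0.26 for Tnfrsf18, and without WT 3 they were -0.25 and 0.11. Without Tol 1 they were -0.0089 and 0.08.

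In cerebellum, Ikzf2 was at 9.54 and 6.78 CPM in Tol 1 and Tol 2 and at 9.61, 9.12, 9.93 and 9.51 CPM in the WT mice. The low value belonged to the library that went against its label. The log2 fold change of -0.23 ± 0.18 (SE) became -0.01 without it, with 1 Tol library that is then assumed to vary like the WT libraries. Without Tol 1 it was -0.50, with an unadjusted p under 0.05, as had 3982 of 17239 genes in that fit. Tnfrsf18 was at 6.77 and 4.67 CPM in Tol 1 and Tol 2 and at 6.14, 5.46, 8.06 and 6.12 CPM in the WT mice. Tol 2 was again the lowest, and the log2 fold change of -0.17 ± 0.24 (SE) became 0.07 without it and -0.47 without Tol 1. For Foxp3 in cerebellum the log2 fold change was -0.21, and ran from -0.94 without Tol 2 to 0.27 without Tol 1 as each library was left out. That of Il2ra was 0.32, or 0.44 without Tol 2, and ran from 0.12 without WT 1 to 0.52 without WT 2. That of Tnfrsf4 was -0.36, and ran from -0.63 without Tol 1 to -0.14 without Tol 2. That of Tigit was 0.15, and ran from -0.06 without Tol 2 to 0.33 without Tol 1.

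Mean levels in thymus were 6.92 and 3.67 times those in cerebrum and cerebellum for Tnfrsf18, 8.01 and 5.92 times for Tigit, 18.4 and 13.0 times for Tnfrsf4, 31.4 and 15.4 times for Ikzf2, and 238 and 222 times for Il2ra. Without the cerebellum library Tol 2 the ratios to cerebellum were 3.49 for Tnfrsf18, 6.18 for Tigit, 12.2 for Tnfrsf4, 14.7 for Ikzf2 and 224 for Il2ra. These ratios were set across tables that were scaled separately and were not tested. Foxp3 was at 0 to 0.689 CPM in cerebrum, with 2 of 8 libraries under 3 counts, and at 0.237 to 0.597 CPM in cerebellum. Il2rb was at 0 to 0.574 CPM in cerebrum, with 3 of 8 libraries under 3 counts, and at 0.149 to 0.462 CPM in cerebellum. Its highest cerebrum value was that of WT 3, and the next, 0.344 CPM, that of Tol 4, the libraries that stood apart in thymus markers. These values rested on 11 and 5 counts. The general T cell genes named below summed to 2.24 CPM in WT 3 and to 4.13 CPM in Tol 4. A link between these values was not tested. Ctla4 and Icos were under 3 counts in 6 of the 8 cerebra each and in all 6 cerebella, and were not detectable in those libraries at this depth. The general T cell genes Cd3e, Cd3d, Cd3g, Cd2, Trac, Lck and Cd28 summed to 1.91 to 4.13 CPM in cerebrum, to 4.07 CPM in the cerebellum library Tol 2 and to 5.22 to 6.89 CPM in the other 5 cerebella, against 3286 to 3833 CPM in thymus. Of these, Cd28 was at 0.0399 CPM in cerebellum Tol 2, against 2.81 CPM in Tol 1 and 1.01 to 2.39 CPM in the WT cerebella. Lck was instead highest in Tol 2, at 1.475 CPM, against 0.448 to 0.7145 CPM in the WT cerebella. What this sum reflects in brain was not tested.

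**Figure D3:**
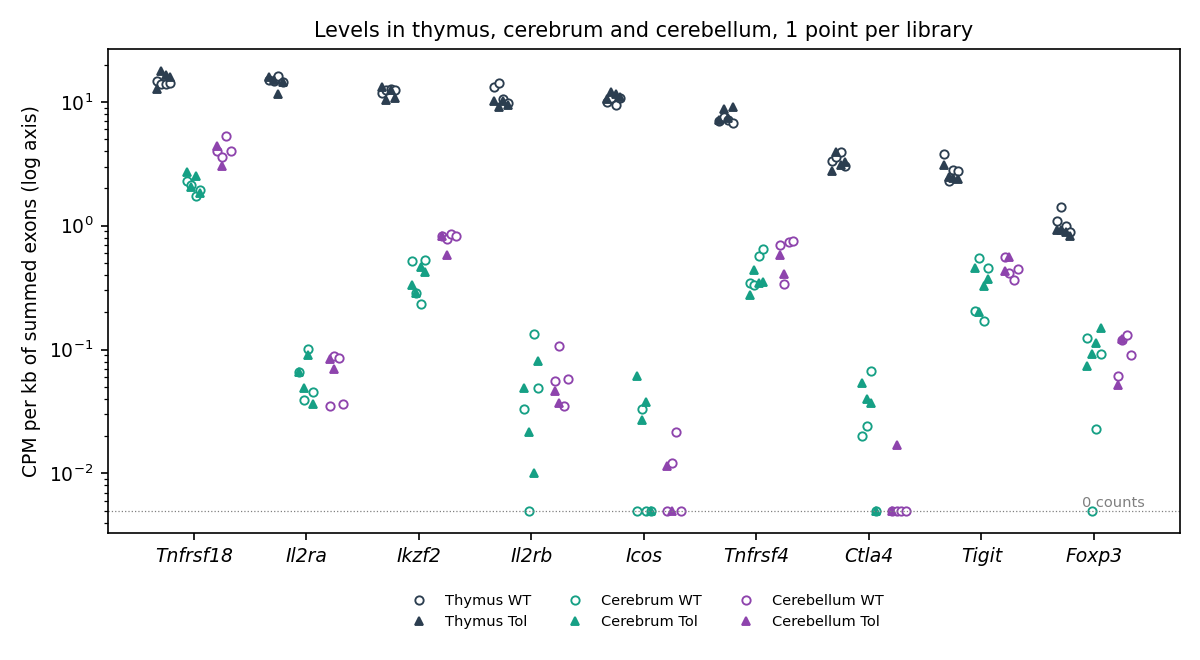
Level of each gene in thymus, cerebrum and cerebellum in CPM per kb of summed exons (vertical axis, logarithmic), with 1 point per library, open circles for WT and triangles for Tol, and libraries with 0 counts lie on the dotted line. The thymus points lie above the brain points for every gene, and Tnfrsf18 comes closest, at 6.92 and 3.67 times its mean in cerebrum and cerebellum (3.49 without cerebellum Tol 2).

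On GRCm38, Foxp3 (ENSMUSG00000039521) lies at chrX:7573644-7595245 on the + strand, Il2ra (ENSMUSG00000026770) at chr2:11642807-11693193 on the + strand and Il2rb (ENSMUSG00000068227) at chr15:78479256-78495271 on the - strand. Chromosome 1 holds Ctla4 (ENSMUSG00000026011, chr1:60887000-60915832, + strand), Icos (ENSMUSG00000026009, chr1:60977927-61000320, + strand) and Ikzf2 (ENSMUSG00000025997, chr1:69531214-69687245, - strand). Tnfrsf4 (ENSMUSG00000029075) is at chr4:156013843-156016612 and Tnfrsf18 (ENSMUSG00000041954) at chr4:156026164-156028895, both on the + strand, and Tigit (ENSMUSG00000071552) at chr16:43648867-43664146 on the - strand.

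Promoter sequences from RefSeq (GRCm38.p6, 250 bases before to 50 after a start) were given for 6 of the 9 genes, Ctla4, Il2ra, Tnfrsf4, Tnfrsf18, Tigit and Foxp3, the last with 2 starts. They were searched on both strands for TTCNNNGAA, the spaced palindrome bound by STAT factors that act below the interleukin-2 receptor, for TGTTTAC, a forkhead motif, and for TGANTCA, an AP-1 motif, and no match overlapped another. Of 32851 promoters of this length, 8.30% held the first, 3.65% the second and 7.81% the third. TTCNNNGAA was found in Tnfrsf18 and at 1 start of Foxp3, and the other motifs in none of the 7 sequences. A match is a description of the letters and does not show binding. The neighbours Tnfrsf4 (chr4:156013445-156013744, + strand) and Tnfrsf18 (chr4:156026072-156026371, + strand) and the later start of Foxp3 (chrX:7580233-7580532, + strand) are shown, with the match in capitals. They compare the adjacent receptor genes, of which 1 holds the motif, with the lineage factor.
Tnfrsf4: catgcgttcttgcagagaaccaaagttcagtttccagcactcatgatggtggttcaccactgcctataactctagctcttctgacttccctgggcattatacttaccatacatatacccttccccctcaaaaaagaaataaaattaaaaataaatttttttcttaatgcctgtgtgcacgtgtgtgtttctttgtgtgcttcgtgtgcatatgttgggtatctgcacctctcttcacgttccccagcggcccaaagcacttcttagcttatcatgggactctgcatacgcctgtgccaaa
Tnfrsf18: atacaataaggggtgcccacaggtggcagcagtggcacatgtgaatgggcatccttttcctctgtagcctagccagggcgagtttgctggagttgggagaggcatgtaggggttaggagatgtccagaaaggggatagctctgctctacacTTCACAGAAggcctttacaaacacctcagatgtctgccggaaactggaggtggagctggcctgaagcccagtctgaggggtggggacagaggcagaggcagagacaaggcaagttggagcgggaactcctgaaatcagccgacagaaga
Foxp3: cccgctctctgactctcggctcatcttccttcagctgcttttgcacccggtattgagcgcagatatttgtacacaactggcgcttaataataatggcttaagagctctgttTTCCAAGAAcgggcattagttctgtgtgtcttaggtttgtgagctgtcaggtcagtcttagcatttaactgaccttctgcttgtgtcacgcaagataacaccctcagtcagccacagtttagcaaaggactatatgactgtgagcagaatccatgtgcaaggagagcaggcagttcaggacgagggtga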

How the data were processed

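Transcript abundance was estimated by the authors with Salmon 0.14.1 on GRCm38, per the submitters' processing notes, and the gene-level tables deposited hold these estimated counts, not normalized and already whole, so no rounding was needed. In all 0 columns were left unused. How transcripts were summed to genes, and whether strand was used, is not given in the sources used here. Each organ was fitted separately for the effect of genotype using edgeR 4.0.16 under R 4.3.3 (TMM, filterByExpr, quasi-likelihood F test, Benjamini-Hochberg adjustment over all genes tested). The transgene was tested but not counted. DESeq2 1.42.0 was an alternative, beside other scaling and filters, robust moderation, 1 fit of all libraries, a replicate block, removal of each library's trend with length and GC content, and leaving out each library in turn. DESeq2 for the brain members, the counts of list genes under alternatives and the ratios of levels without cerebellum Tol 2 were added after the data were seen. Symbols and lengths are from GENCODE vM21.

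The study describes 4 mice per genotype, while the cerebellum was analysed with 2 Tol libraries. The p-values set the difference between genotypes against the spread between mice within an organ, estimated with information shared across genes. The labels do not say whether organs came from the same mice, and the fit of all 22 libraries had no term for the mouse. Tol and WT mice share replicate numbers but are different mice. No pair of libraries of a group was identical (31 pairs; chi-square per degree of freedom 4.98 to 208). The test was checked on simulated counts, where it missed the smaller of the changes put into cerebellum. Floors cover counting error only. The members and lists were chosen with earlier results of these data known. Named are the 9 members; of each list those passing in thymus or, with none, the gene of lowest p and the most abundant gene; the tissue markers; and the 5 genes most correlated with Foxp3 among those with a mean of at least 1 CPM. Some, not all, of the genes passed by DESeq2 or without Tol 1 were also named, after their values were seen. A gene that this rule would name is not reported here.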

Additional observations from a re-analysis of the deposited data

Results flagged for a closer look

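Of 49 groups of 4 libraries examined for totals and member levels, 6 had 1 library far from the other 3 by the size of its gap to the nearest, relative to their range. For independent groups of normally distributed values, chance gives about 1 in 20 such groups (5%). The groups here share libraries and some hold counts near 0, so that rate may not apply to them. Total counts were far from the rest in thymus WT 4 (29145285, next 17940261), thymus Tol 1 (34776973, next 20527399) and cerebrum Tol 4 (14543698, next 22147602). Tigit was at 2.86 CPM in thymus Tol 1, against 2.25 CPM in the next Tol thymus. Icos was at 0.113 CPM in cerebrum WT 2 and at 0 in the other WT cerebra, and this level is under 3 counts. Tnfrsf4 was at 0.462 CPM in cerebellum WT 2, against 0.957 CPM in the next WT cerebellum. Whether depth has a part in the Tigit value was not tested.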

How the results depend on the processing

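In thymus, the log2 fold changes of the 9 genes kept their direction without passing in 150 of 153 gene and setting pairs, 1 of which, Tigit with DESeq2, had no adjusted p. Ikzf2 (-0.08) turned to 0.0532 with the length and GC trend removed and to 0.0536 with the replicate block as well, and Tnfrsf18 passed without Tol 1 (adjusted p = 0.0388 by edgeR, 0.0388 to 0.913 over the alternatives). In cerebrum Ikzf2 (-0.07) turned to 0.04 without Tol 2, 0.10 without WT 1 and 0.11 without WT 4, with a lowest value of -0.25 without WT 3. In cerebellum Foxp3 (-0.21) turned to 0.27 without Tol 1 and was -0.94 without Tol 2. Tnfrsf18 (-0.17) turned to 0.0653 and Tigit (0.15) to -0.0608 without Tol 2, and they were at -0.47 and 0.33 without Tol 1. Ikzf2 (-0.23) was -0.50 without Tol 1. In thymus, 0 to 4 of the 9 genes had an unadjusted p under 0.05 as libraries were left out, and 0 with all 22 libraries in 1 fit. The causes were not tested.

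In thymus, the count of genes that passed by edgeR was 16, and with DESeq2's size factors it was also 16. It was 1296 with DESeq2, 130 without a filter, 85 with at least 10 counts in every library, 38 with robust moderation, 29 with all 22 libraries in 1 fit and 85 with the length and GC trend removed. Leaving out a library gave 0 to 2978 genes: 2978 without Tol 1, 97 without Tol 3, 7 without WT 4 and 0 without any 1 of Tol 2, Tol 4, WT 1, WT 2 or WT 3. In cerebrum the count of 0 became 187 with DESeq2 and 25 with all libraries in 1 fit, and 0 to 7 on leaving out a library (7 without WT 3). In cerebellum it became 9 with DESeq2 and 0 to 2 on leaving out a library (2 without Tol 1, so that Tol 2 stood alone). The causes were not tested.

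With the replicate block, 5 thymus genes passed, and 7 with the length and GC trend also removed; 0 passed in the brain. Same-numbered mice correlated between -0.11 and 0.05 in thymus, where 0 of 4 Tol mice were most like their own number. In cerebrum the range was -0.30 to 0.34 (2 of 4), and in cerebellum the values were -0.18 and 0.62 (1 of 2). With 2 to 4 Tol libraries per organ, these values cannot decide whether the numbers pair the mice. Of the 9 genes the block passed 0 by edgeR, with 1 at an unadjusted p under 0.05. Foxp3 rested on 74 to 145 counts and Tigit on 37 to 98 in thymus, and members other than Ikzf2 and Tnfrsf18 on at most 27 in brain. The coefficient of variation over WT thymi was 20.8% for Foxp3 and 17.4% for Il2rb, which had 712 to 1485 counts, and the part of depth in this spread was not tested.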
